A study of Mus musculus with 16 samples.

Results

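The comparison described here set the 7 arrays of HSC subsets against the 9 arrays of myeloid progenitors, which together were all 16 miR arrays of the series. The HSC subsets were long-term HSC (LT-HSC, 1 array), short-term HSC (ST-HSC, 3 arrays) and multipotent progenitors (MPP, 3 arrays), and the myeloid side held the progenitors common to all myeloid cells (CMP), those of granulocytes and monocytes (GMP) and those of megakaryocytes and erythroid cells (MEP), with 3 arrays each. Members were chosen by array title, so no measured value chose them. A difference was kept only where CMP, GMP and MEP each lay on the same side of the HSC subsets, which sets a miR of one myeloid branch apart from a miR shared by all of them.

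Every population came from bone marrow of female C57Bl/6 mice 6 to 8 weeks old, for which no treatment or transgene is named, with 10 to 20 mice pooled for each replicate, so each array averages over many animals. Marrow was depleted of cells carrying B220, CD3, GR-1 or Ter119 and enriched for c-kit, then sorted by flow cytometry. Sca-1+ c-kit+ cells were LT-HSC when CD34- FLT3-, ST-HSC when CD34+ FLT3- and MPP when CD34+ FLT3+. Sca-1- c-kit+ cells were CMP at intermediate CD34 and FcRγ, GMP when CD34+ FcRγ+ and MEP when CD34- FcRγ-. The HSC subsets and the myeloid progenitors were collected in separate sorts. Total RNA was labelled with Cy3 and hybridised to one-colour Agilent mouse miR arrays. P-values measure the spread between arrays of a population, which can hold slide as well as pool.

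MicroRNAs (miRs) are short RNAs that guide the silencing machinery to messenger RNAs, chiefly through the seed, bases 2 to 8 of the mature strand, so miRs with the same seed can share targets. Many lie in clusters that are transcribed together. In blood formation, HSC give rise to CMP, which then branch into GMP, the source of granulocytes and monocytes, and MEP, the source of red cells and platelets.

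Sequences below are the RefSeq mature miRs on GRCm38.p6, written 5′ to 3′ with the seed in capitals. They carry both ends of the comparison: miRs higher in HSC subsets than in each of CMP, GMP and MEP, with their relative miR-100, which was not, and the miR-17 seed family, lower except for miR-106b. RefSeq sequences were found for 25 of the 30 mouse miRs that passed this test. The first group came from paralogous clusters that pair a miR-99 or miR-100 with a let-7 and a miR-125, plus miR-10a. On chr17 (+) lie miR-99b at chr17:17830194-17830215, let-7e at chr17:17830366-17830387 and miR-125a-5p at chr17:17830817-17830840. The chr16 cluster (+) holds miR-99a at chr16:77598940-77598961 and a copy of miR-125b-5p at chr16:77646279-77646300, and the chr9 cluster (+) holds miR-100 at chr9:41531437-41531458 and the other copy of miR-125b-5p at chr9:41581940-41581961. MiR-10a lies at chr11:96317186-96317208 (+), in the HoxB cluster.
let-7e: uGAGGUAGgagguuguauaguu
miR-125a-5p: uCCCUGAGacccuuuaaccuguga
miR-125b-5p: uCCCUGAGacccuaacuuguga
miR-99b: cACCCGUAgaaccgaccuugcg
miR-99a: aACCCGUAgauccgaucuugug
miR-100: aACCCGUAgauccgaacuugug
miR-10a: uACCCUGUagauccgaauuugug
The miR-99 and miR-125 seeds were each carried by 2 of the miRs that passed. The probes of the miRs printed here cover 14 to 21 bases from the 3′ end, and over that part members of the miR-99 family differ by 1 to 3 bases, so signal shared between close relatives cannot be told apart here.

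The miR-17 family is encoded by the miR-17 cluster on chr14 (+), with miR-17 at chr14:115043684-115043706 and miR-20a at chr14:115044183-115044205, and by its paralogs. MiR-106a and miR-20b lie on chrX (-), at chrX:52742541-52742563 and chrX:52742159-52742181, and miR-93 and miR-106b on chr5 (-), at chr5:138165574-138165596 and chr5:138165787-138165807. MiR-18a, at chr14:115043867-115043889 (+) between miR-17 and miR-20a, has a related seed.
miR-17: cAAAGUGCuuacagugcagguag
miR-106a: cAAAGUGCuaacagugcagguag
miR-20a: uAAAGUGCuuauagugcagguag
miR-20b: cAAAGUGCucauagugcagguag
miR-93: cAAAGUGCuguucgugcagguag
miR-106b: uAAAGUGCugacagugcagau
miR-18a: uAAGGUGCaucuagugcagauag
All 6 miRs with the seed AAAGUGC were tested. Without miR-106b, which was not compared this way, their probe regions differ by 1 to 4 bases between pairs. Signal shared between close relatives cannot be told apart here either.

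Some arrays stood apart before any comparison. Slide 1 carried the first 2 replicates of each myeloid population and no HSC array, slide 3 carried MPP 1 to 3, ST-HSC 2 and ST-HSC 3 and no myeloid array, and slide 2 carried both sides, namely LT-HSC 1, ST-HSC 1, CMP 3, GMP 3 and MEP 3. Slide and side were thus partly confounded, and values within slide 2 and with slide as a block are given after the main results. The main fit has no slide term and treats arrays of 1 slide as independent. Values did correlate within slides (limma consensus correlation 0.791), which its p-values leave out. A miR is called detected on an array where Feature Extraction, the scanner software, placed at least 0.5 of its probe's spots well above background. From 140 to 217 miRs were detected per HSC array and from 144 to 188 per myeloid array. By slide the ranges were 144 to 188, 140 to 178 and 202 to 217 on slides 1, 2 and 3. Negative controls were brighter on slide 1, with 95th percentiles of 9.94 to 44.3 units, against 1.53 to 2.21 on slide 2 and 1.99 to 3.35 on slide 3. Slide 1 was also read on another scanner model (G2505B, not G2505C). How far this kept miRs from detection on slide 1, which held myeloid arrays only, was not tested. The LT-HSC array was the dimmest, and it carried the erythroid miRs miR-451 at 11.15, miR-144 at 5.29 and miR-486 at 6.34 on the log2 signal scale, where the other 6 HSC arrays ran from 5.11 to 8.10, 1.62 to 4.48 and 1.93 to 3.38 and the MEP arrays from 11.73 to 12.39, 8.93 to 9.69 and 7.40 to 7.91. LT-HSC counted for 1 of the 3 population means of the HSC side, so results are also given without it. Of 13 miRs known for liver, muscle, neurons or epithelium, 0 or 1 was detected on an HSC array and 0 to 4 on a myeloid array, and their summed signal was 0.0204% to 0.0332% of an HSC array's and 0.0153% to 0.305% of a myeloid array's. The muscle miRs miR-1, miR-133a, miR-133b and miR-206 were detected on MEP 1 alone, neuronal miR-124 on CMP 1 and CMP 3 and miR-9 on CMP 1, epithelial miR-200b on the 3 MPP arrays, and the other 6 on none; their part in the results was not tested. Of the 13, miR-200b alone passed the filter for testing. In sorted bulk RNA, fewer cells with a miR and less of it per cell cannot be told apart.

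Of 237 tested miRs, 114 (48.1%) differed between HSC subsets and myeloid progenitors at a limma adjusted p under 0.05, 60 (25.3%) of them higher in HSC subsets and 54 (22.8%) lower. CMP, GMP and MEP lay on the same side for 82 of the 114 (34.6% of all tested), made up of 46 of the 60 (19.4%) and 36 of the 54 (15.2%). The stricter class, in which each of CMP, GMP and MEP was called on its own against the HSC subsets, held 13 miRs higher in HSC subsets (5.49%) and 18 lower (7.59%). The remaining 32 called miRs (13.5%) had at least 1 myeloid population at or beyond the HSC level. The 3 single-population differences share the HSC arrays, so they are not independent of each other.

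**Figure D1:**
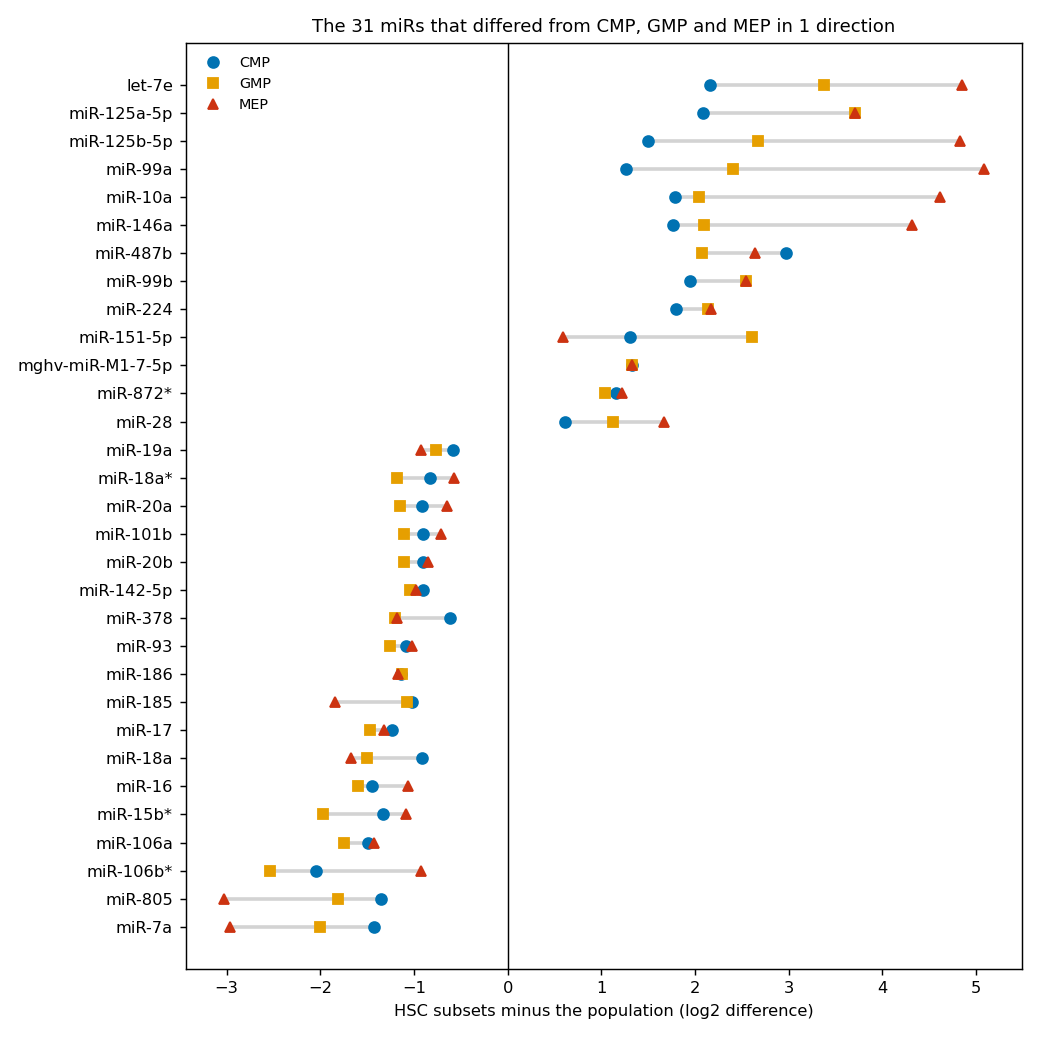
Log2 difference between the HSC subsets and CMP (circles), GMP (squares) or MEP (triangles) for each of the 31 miRs called against all 3, ordered by the difference over both sides; differences are as measured, also from populations that did not detect the miR. Values right of 0 are higher in HSC subsets. The points of let-7e, miR-99a, miR-125b-5p and miR-10a spread widely, with MEP farthest out, whereas those of miR-17, miR-93 and miR-106a lie close together.

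The miR-99/let-7/miR-125 clusters held the largest differences of the stricter class. Of 8 tested members of a list of these clusters, 6 were higher in HSC subsets, 5 of them in the stricter class, none was lower and the other 2, miR-125a-3p and let-7c, were not called. The median difference over the 8 was 2.63 on the log2 scale, against 0.06 over all tested miRs, of which 25.3% were called higher. The 7 and 9 arrays did not overlap for 14 of all tested miRs (5.91%), 7 with the HSC subsets higher (2.95%) and 7 with them lower (2.95%), and 5 of the 8 were among the former.

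Let-7e, a let-7 family member, was at 5.73 on the LT-HSC array, at 5.63, 6.72 and 7.31 on the ST-HSC arrays and at 7.51, 7.26 and 7.61 on the MPP arrays (log2 normalized signal throughout). It was at 4.31, 4.58 and 4.38 in CMP, at 3.54, 3.57 and 2.52 in GMP and at 1.62, 1.96 and 1.62 in MEP. Every HSC array was above every myeloid array, and the levels of the 3 myeloid populations did not overlap each other. The log2 difference was 3.46 ± 0.25 (SE; 11.0-fold, limma adjusted p = 1.4e-07). It was detected on 2 of the 9 myeloid arrays and on none of MEP, where the fold was at least 9.0 with every HSC array weighed alike. Among the 9 tested miRs of the let-7 and miR-98 family it was the sole member called higher in HSC subsets, miR-98 was called lower at -0.77 (0.057 without the LT-HSC array), and the other 7 had differences from 0.06 to 0.84 that were not called. With slide as a block, let-7c (0.61), let-7g (0.35) and let-7i (0.39) were called higher too, at limma adjusted p of 0.00921, 0.0454 and 0.0264.

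Its cluster neighbours miR-125a-5p and miR-99b were likewise highest in HSC subsets and next in CMP. MiR-125a-5p, one of the miR-125 family known to enlarge the HSC pool when overexpressed, was at 5.41 in LT-HSC, at 4.89, 5.03 and 5.33 in ST-HSC and at 5.49, 5.23 and 5.69 in MPP. It was at 3.64, 3.54 and 2.51 in CMP and at 1.62, the floor of the scale, on all 6 GMP and MEP arrays. It was detected on no myeloid array, so the folds are bounds: at least 2.73 against all myeloid progenitors, 1.99 against CMP, 3.30 against GMP and 3.12 against MEP, with a measured difference of 3.16 ± 0.18 (limma adjusted p = 1.2e-08). MiR-99b ran from 3.88 to 4.51 (median 4.27) over the 7 HSC arrays and was at 2.32, 2.22 and 2.09 in CMP and at the floor on all GMP and MEP arrays. It was detected on 6 HSC arrays and no myeloid array, and its fold was at least 1.28 over all myeloid progenitors, with no bound above 1 against CMP alone (measured difference 2.35 ± 0.11, limma adjusted p = 3.73e-09).

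MiR-125b-5p and miR-99a were bright enough to be measured on nearly every array. MiR-125b-5p was at 9.55 in LT-HSC, at 8.83, 9.06 and 9.16 in ST-HSC and at 9.66, 9.44 and 9.52 in MPP, against 8.17, 7.8 and 7.65 in CMP, 6.96, 7.01 and 6.13 in GMP and 4.45, 5.0 and 4.19 in MEP. MiR-99a was at 8.47 in LT-HSC, at 8.90, 8.65 and 8.80 in ST-HSC and at 9.14, 9.06 and 9.28 in MPP, against 7.55, 7.5 and 7.58 in CMP, 6.62, 6.72 and 5.86 in GMP and 3.58, 4.12 and 3.45 in MEP. For both, each of the 3 steps from HSC subsets through CMP and GMP to MEP was free of overlap between arrays. The differences were 3.00 ± 0.18 (7.99-fold, limma adjusted p = 2.41e-08) for miR-125b-5p and 2.92 ± 0.16 (7.56-fold, limma adjusted p = 1.2e-08) for miR-99a. Against CMP, GMP and MEP in turn they were 1.5, 2.67 and 4.82 for miR-125b-5p and 1.26, 2.40 and 5.09 for miR-99a, and the levels of the 3 myeloid populations differed from each other (moderated F of limma, adjusted p = 1.49e-06 and 1.3e-07).

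MiR-100, whose seed is that of miR-99a, was not called against CMP. It was at 4.65 in LT-HSC, at 5.86, 4.43 and 4.52 in ST-HSC and at 5.17, 4.99 and 5.25 in MPP, against 5.62, 5.56 and 5.02 in CMP, 4.72, 5.13 and 3.36 in GMP and the floor on all 3 MEP arrays. CMP and GMP overlapped the HSC subsets and MEP did not. The difference was 1.10 ± 0.29 over all myeloid progenitors (limma adjusted p = 0.00678), -0.49 against CMP (limma adjusted p = 0.315), 0.51 against GMP (limma adjusted p = 0.29) and at least 2.51-fold against MEP. With slide as a block it was 2.35 over all, 0.75 against CMP (limma adjusted p = 0.135) and 1.75 against GMP (limma adjusted p = 0.00189), so all 3 populations then lay on the same side.

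MiR-10a, encoded in the HoxB cluster, was the other bright miR of this class. It was at 9.0 in LT-HSC, at 8.37, 9.66 and 9.75 in ST-HSC and at 9.79, 9.91 and 10.08 in MPP, against 7.95, 8.10 and 6.79 in CMP, 7.65, 7.83 and 6.57 in GMP and 5.02, 5.70 and 3.61 in MEP. The HSC arrays lay above all myeloid arrays, CMP overlapped GMP, and MEP lay below both. The difference was 2.82 ± 0.37 (7.05-fold, limma adjusted p = 3.56e-05), and 4.62 against MEP. Of 5 tested miRs of the Hox clusters, 4 were higher in HSC subsets with all myeloid populations on the same side (19.4% of all tested were). The median difference was 1.23 over the 5, against 0.06 over all tested miRs. The fifth, miR-196a, had a difference of 0.66 that was not called. MiR-196b reached 1.96 ± 0.22 (limma adjusted p = 1.18e-05), with 0.58 against CMP, 1.82 against GMP and 3.48 against MEP, of which the first was called with slide as a block alone (1.0, limma adjusted p = 0.00915). MiR-10b, at 1.23 ± 0.46 (limma adjusted p = 0.0416), lost its call in 9 of the 16 fits that left out 1 array and reached 1.86 without the LT-HSC array. Its second probe gave 0.21. MiR-10b and miR-10a differ by 1 base over the 21 bases probed, so signal shared between them cannot be told apart. MiR-10a* comes from the hairpin of miR-10a, so the 4 miRs are not separate observations.

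**Figure D2:**
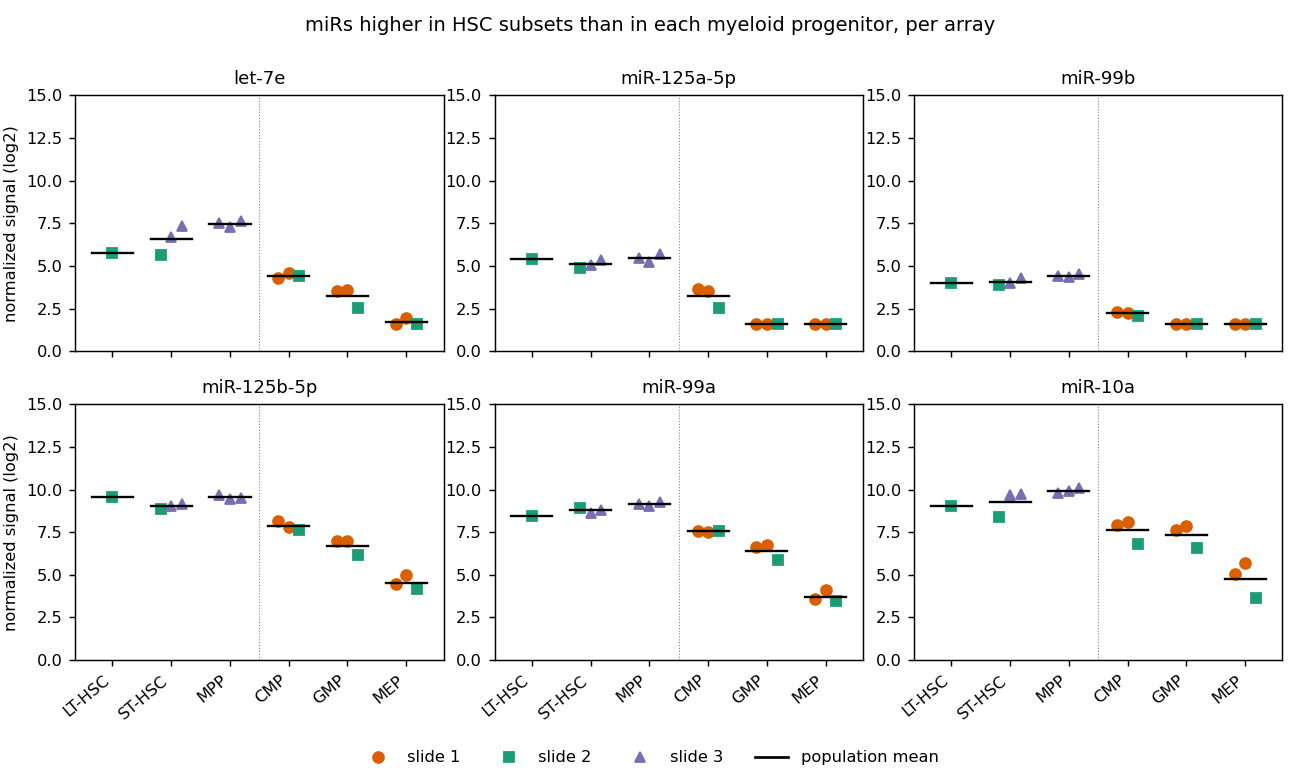
Log2 normalized signal of 6 miRs on every array, by population; colour and shape give the slide and bars the population mean. HSC subsets stand left of the dotted line. In all 6 panels every HSC array lies above every myeloid array, and the drop from CMP to MEP is largest for miR-99a and miR-125b-5p; miR-125a-5p and miR-99b sit at the floor of 1.62 in GMP and MEP.

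The other 7 miRs higher in HSC subsets than in each myeloid population were dimmer or less even. MiR-146a, which restrains inflammatory signalling, was at 8.80 in LT-HSC, at 7.69, 5.13 and 6.03 in ST-HSC and at 5.26, 5.17 and 5.56 in MPP, against 4.29 to 5.21 over the CMP and GMP arrays and 1.69 to 3.1 in MEP. The 2 HSC arrays of slide 2 were the highest, and ST-HSC 2 and MPP 2 lay below CMP 1. The difference of 2.73 ± 0.35 (limma adjusted p = 3.14e-05) was 1.73 without the LT-HSC array, and against MEP it was at least 5.98-fold. MiR-151-5p had a difference of 1.5 ± 0.15 (limma adjusted p = 6.5e-06). It was detected on no CMP or GMP array, so its folds there are bounds of at least 1.60 and 2.66, and it was 0.59 higher than MEP on the log2 scale.

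MiR-224 did not overlap between sides, at 2.84 to 4.76 (median 4.14) over HSC arrays and 1.62 to 2.23 over myeloid ones. It was detected on 5 HSC arrays and no myeloid array (difference 2.04 ± 0.14, limma adjusted p = 5.57e-08). Its bound of 1.16-fold weighs every HSC array alike, and LT-HSC was the lowest of them, so a fold above 1 for that difference is not shown. MiR-28 and miR-872* were detected on 5 HSC arrays and no myeloid one, with differences of 1.13 and 1.14 and no bound above 1; without the LT-HSC array these were 1.89 and 1.75. MiR-487b had a difference of 2.56 ± 0.53 (limma adjusted p = 0.00162), and the mouse herpesvirus probe M1-7-5p one of 1.33 near the floor.

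Among the 46 miRs higher in HSC subsets on all 3 sides, MEP was the farthest population for 31 (67.4%), against 132 of all 237 tested miRs (55.7%). Over all tested miRs, 17.3%, 21.9% and 38% were called higher in HSC subsets than in CMP, GMP and MEP, and 26.6%, 27% and 24.5% lower. Several known regulators were in this set without being called against CMP. MiR-130a, a regulator in megakaryocytes, was at 9.83 in LT-HSC, at 10.45, 8.83 and 8.88 in ST-HSC and at 7.95, 7.81 and 7.88 in MPP, against 8.80, 8.80 and 9.28 in CMP, 7.8, 7.66 and 7.29 in GMP and 4.62, 5.49 and 4.87 in MEP. CMP lay within the range of the HSC subsets, and MEP below all of them: its differences were 0.07 from CMP (limma adjusted p = 0.855) and 4.04 from MEP (limma adjusted p = 3.75e-07). With slide as a block the CMP difference was 0.99 and called (limma adjusted p = 0.0326). Differences from CMP, GMP and MEP were 0.25, 0.38 and 2.74 for miR-222, which restrains Kit, 0.56, 2.04 and 2.44 for miR-126-3p, known for endothelium and HSC quiescence, and 0.79, 2.47 and 3.16 for miR-150, a regulator of lymphoid and MEP fate through Myb. MiR-150 was detected on no MEP array, where its fold was at least 6.39. For none of these 3 was the CMP difference called, but with slide as a block it was for miR-126-3p (1.60, limma adjusted p = 0.000739) and miR-150 (1.32, limma adjusted p = 0.0021). Of 12 tested immune and vascular regulators, 8 were higher in HSC subsets and 2, miR-142-3p and miR-142-5p, lower, with a median difference of 0.94. Of all tested miRs, 25.3% were called higher and 22.8% lower, with a median of 0.06.

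The class lower in HSC subsets was led in number by the miR-17 cluster and its paralogs, which promote proliferation and survival of progenitors. Of 18 tested members, 12 were lower in HSC subsets, 9 of them against each myeloid population, 5 were not called and 1, miR-92a, was higher (0.49 ± 0.16, limma adjusted p = 0.0221). With slide as a block 9 were called lower and none higher, so miR-92a lost that call. Its second probe gave 0.07 without the block. Without the block the median difference over the 18 was -0.81, against 0.06 over all tested miRs, of which 22.8% were called lower. The probe regions of miR-17, miR-106a, miR-20a and miR-20b differ by as little as 1 base, so these members may share signal and are not separate observations. The study listed 14 miRs as shared by myeloid progenitors, a list chosen on these same arrays. Only 7 of the 14 were tested, and the others did not pass the detection filter here. All 7 were lower in HSC subsets and 4 were in the stricter class. MiR-17, miR-106a, miR-93 and miR-19a* are in both lists.

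MiR-17 was at 7.37 in LT-HSC, at 7.55, 6.70 and 6.84 in ST-HSC and at 6.21, 6.66 and 6.51 in MPP, against 8.37, 8.17 and 8.04 in CMP, 8.40, 8.47 and 8.40 in GMP and 8.56, 8.08 and 8.19 in MEP. MiR-106a was at 6.70 in LT-HSC, at 7.31, 6.23 and 6.26 in ST-HSC and at 5.86, 6.26 and 6.19 in MPP, against 7.69 to 8.10 in CMP, 8.14 to 8.28 in GMP and 7.8 to 7.95 in MEP. For both, every HSC array lay below every myeloid array and the 3 myeloid populations were close together. MiR-17 was lower in HSC subsets by a log2 difference of -1.34 ± 0.16 (2.54-fold, limma adjusted p = 1.53e-05) and miR-106a by -1.55 ± 0.18 (2.93-fold, limma adjusted p = 1.18e-05). Against CMP, GMP and MEP in turn the differences were -1.24, -1.47 and -1.32 for miR-17 and -1.49, -1.74 and -1.42 for miR-106a. A difference among the 3 myeloid populations was not called for either (moderated F of limma, adjusted p = 0.663 and 0.512).

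MiR-93 ran from 8.08 to 9.44 (median 8.28) over HSC arrays and from 9.58 to 10.15 (median 9.88) over myeloid ones, and miR-20b from 9.69 to 10.19 (median 9.88) and from 10.42 to 11.15 (median 10.84), in both cases without overlap. The differences were -1.12 ± 0.18 (2.17-fold, limma adjusted p = 0.000213) and -0.95 ± 0.14 (1.93-fold, limma adjusted p = 9.28e-05). MiR-20a, at 10.61 to 11.40 over HSC arrays and 11.15 to 12.07 over myeloid ones, overlapped through ST-HSC 1 and had a difference of -0.90 ± 0.16 (1.87-fold, limma adjusted p = 0.000472). The sixth miR of the seed, miR-106b, was not lower. It was at 9.66 in LT-HSC, at 10.66, 10.45 and 10.45 in ST-HSC and at 10.61, 10.84 and 10.72 in MPP, against 10.48, 10.54 and 10.89 in CMP and 10.12 to 10.45 over the GMP and MEP arrays, a difference of -0.05 ± 0.12 (limma adjusted p = 0.72), whereas the strand opposite to it, miR-106b*, had a difference of -1.84 ± 0.21 (limma adjusted p = 1.18e-05).

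**Figure D3:**
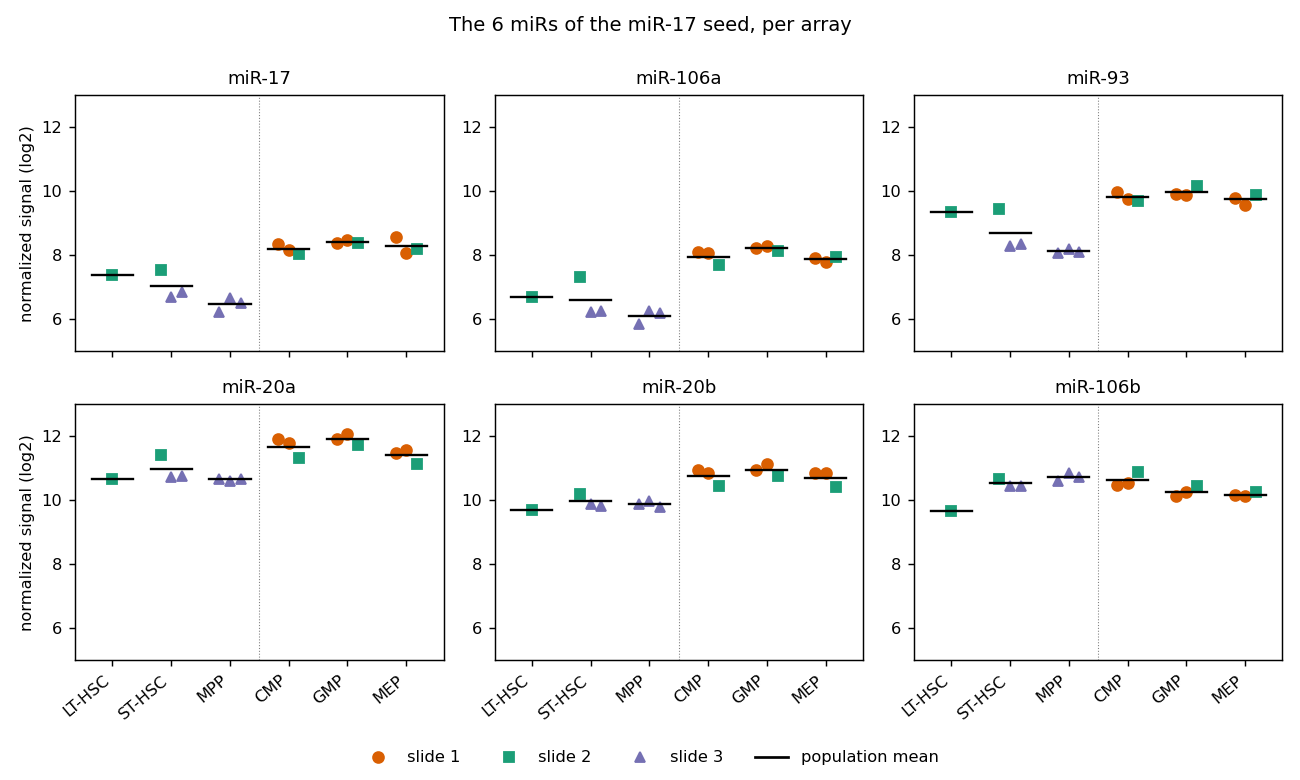
Log2 normalized signal of the 6 miRs that share the seed AAAGUGC on every array, by population, on an axis from 5 to 13; colour and shape give the slide and bars the population mean. The myeloid arrays lie above the HSC arrays for miR-17, miR-106a, miR-93 and miR-20b, overlap them slightly for miR-20a and lie level with or below most of them for miR-106b; ST-HSC 1 and LT-HSC 1 on slide 2 are above the other HSC arrays for miR-17, miR-106a and miR-93.

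The clusters were not uniform. Of 9 tested miRs placed in the miR-17 cluster, miR-17, miR-18a, miR-18a*, miR-19a and miR-20a were in the stricter class, miR-20a* and miR-92a were called in opposite directions without the slide block, and miR-17* and miR-19b were not called. MiR-18a was at 7.76 in LT-HSC, at 8.04, 8.40 and 8.22 in ST-HSC and at 7.76, 8.04 and 7.81 in MPP, against 8.90, 8.88 and 8.80 in CMP, 9.44, 9.48 and 9.44 in GMP and 9.71, 9.52 and 9.62 in MEP. Every GMP and MEP array also lay above every CMP array (moderated F of limma, adjusted p = 0.00304), with differences of -0.91, -1.5 and -1.67 and -1.36 ± 0.11 over both sides (2.56-fold, limma adjusted p = 5.26e-07). MiR-363, the last miR of the chrX paralog, was at 1.62 in LT-HSC, at 4.66, 3.75 and 4.0 in ST-HSC and at 4.04, 4.01 and 4.05 in MPP, against 4.52 to 5.20 over the CMP and GMP arrays and 1.62, 1.91 and 1.62 in MEP. It was below CMP (-1.67) and GMP (-1.47) and above MEP (1.55 as measured), each at a limma adjusted p of 0.00013 or less. No MEP array detected it, and its bound of 1.06-fold weighs every HSC array alike, unlike the difference. With the LT-HSC array so low, that bound does not show a fold above 1 for the difference. MiR-106a and miR-20b of that cluster lay below all 3.

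MiR-7a, a regulator of growth-factor signalling, had the largest difference among the 18 miRs of the stricter class that were lower in HSC subsets. It was at 5.81 in LT-HSC, at 5.65, 4.26 and 4.42 in ST-HSC and at 4.35, 4.52 and 4.37 in MPP, against 6.65, 6.74 and 5.89 in CMP, 7.18, 7.17 and 6.65 in GMP and 8.37, 7.69 and 7.83 in MEP. No HSC array reached a myeloid one, and MEP was highest. The difference was -2.13 ± 0.24 (4.38-fold, limma adjusted p = 1.08e-05), and -1.43, -2.00 and -2.96 against CMP, GMP and MEP. MiR-378 did not overlap either, at 5.39 to 6.49 over HSC arrays and 6.53 to 7.8 over myeloid ones (-1.0 ± 0.18, limma adjusted p = 0.000534). Of the 31 miRs it stayed in the stricter class least often, in 4 of the 16 fits that left out 1 array and under 6 of 18 other settings.

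The remaining 9 miRs of the class overlapped between sides. MiR-805 (-2.06), miR-15b* (-1.46), miR-185 (-1.31), miR-186 (-1.15), miR-142-5p (-0.98) and miR-101b (-0.91) were among them. MiR-16, which restrains the cell cycle, had a difference of -1.37 ± 0.31 (limma adjusted p = 0.00273), but LT-HSC 1 at 10.77 and ST-HSC 1 at 11.21 lay within the myeloid range of 10.48 to 11.73 and the 5 HSC arrays of slide 3 at 8.80 to 9.06. In the 6 tested members of the miR-15, miR-16 and miR-322 family, 2 were higher in HSC subsets (25.3% of all tested miRs), 3 lower (22.8%) and 1 not called. For miR-19a and miR-18a* the differences of -0.76 and -0.86 were -0.43 and -0.47 without the LT-HSC array. The second probe of miR-18a* gave -0.18 over all arrays.

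The levels of CMP, GMP and MEP differed from each other (moderated F, limma adjusted p under 0.05) for 9 of the 13 miRs higher in HSC subsets and for 5 of the 18 lower, where 160 of all tested miRs (67.5%) did. CMP was the myeloid population nearest to the HSC subsets for 9 of the 13 (69.2%) and 8 of the 18 (44.4%), against 94 of all 237 (39.7%), and MEP for 1 and 9, against 73. The single HSC populations were also set against the myeloid mean. The 13 and 18 miRs were chosen on the mean of these populations on the same arrays, so agreement is partly built in. ST-HSC and MPP were each called higher for all 13 (of all tested miRs, 21.9% and 36.3% were), and LT-HSC was called for 9 (11.8%) and lay on the same side for 11, the other 2 being miR-28 and miR-872*. For the 18 lower miRs all 3 HSC populations lay on the same side, and LT-HSC was called for 14 (19% of all tested), ST-HSC for 17 (13.9%) and MPP for 16 (22.8%).

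The 32 miRs with a myeloid population on the other side show what the requirement set apart. Of the 18 called lower in HSC subsets, MEP was the population on the other side for 16, with CMP and GMP both above the HSC subsets by mean. For miR-301a, miR-340-5p and miR-503 neither CMP nor GMP was called without the LT-HSC array. Of the 14 called higher, CMP, GMP or both were on the other side for 12. All 32 differed among CMP, GMP and MEP by the moderated F, as did 67.5% of all tested miRs. The rule that chose the 32 favours such a difference, so this is not a separate result. In 8 of the 32 the opposing population was itself called the other way: MEP for miR-192, miR-223, miR-301b, miR-340-3p, miR-363 and miR-503, GMP for miR-148a and CMP for miR-221. MiR-192, miR-340-3p, miR-363 and miR-503 were detected on no MEP array, with bounds of 1.95-fold for miR-340-3p, 1.06-fold for miR-363 and 1.24-fold for miR-503 and none above 1 for miR-192. These bounds weigh every HSC array alike, and LT-HSC was the lowest HSC array for all of these miRs. For miR-363 and miR-503 they do not show a fold above 1 with populations weighed alike. The CMP call of miR-221 was lost without the LT-HSC array (0.14, limma adjusted p = 0.596), and all 3 populations then lay on the same side, with 1.13 over all (limma adjusted p = 5.05e-05). MiR-322 and miR-542-3p moved in the same way, from 0.63 to 1.09 and from 0.77 to 1.37, while miR-192 went from -0.50 to -0.14 and was no longer called.

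**Figure D4:**
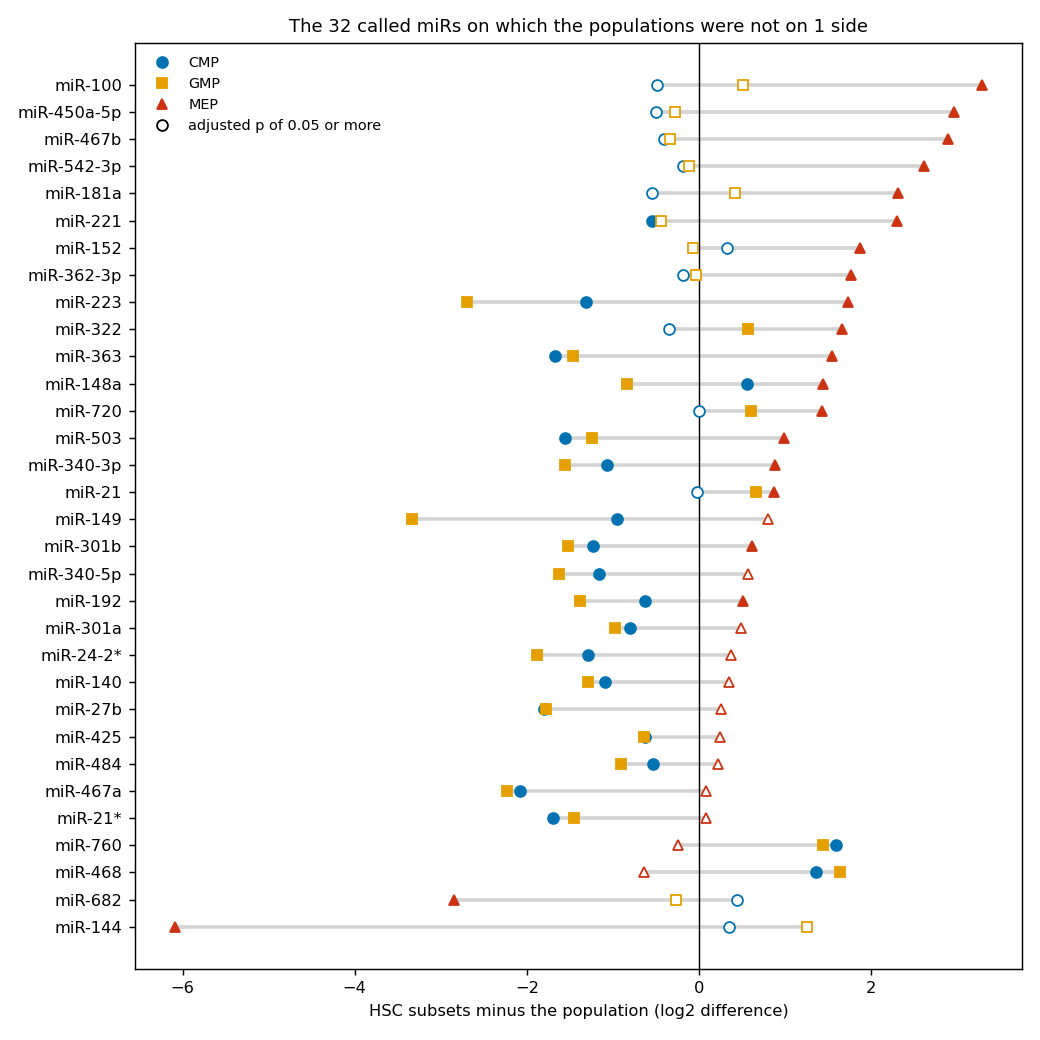
Log2 difference between the HSC subsets and CMP (circles), GMP (squares) or MEP (triangles) for the 32 called miRs on which the 3 populations were not on 1 side, ordered by the MEP difference; filled symbols have a limma adjusted p under 0.05, and differences are as measured, detected or not. MEP lies right of 0 and CMP and GMP left of it for most miRs; miR-144 at the bottom has MEP at -6.09.

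MiR-223, the classic granulocyte-monocyte miR, was at 10.42 in LT-HSC and 11.73 to 12.07 on the other 6 HSC arrays, against 12.70, 12.88 and 12.39 in CMP, 14.04 on all 3 GMP arrays, the top value that the normalization gives to any array, and 9.97, 10.61 and 8.26 in MEP. By mean the HSC subsets lay between MEP and CMP, and GMP was highest, but the LT-HSC array lay below MEP 2. The difference from CMP was -1.31, from GMP -2.69 and from MEP 1.74, with limma adjusted p of 0.0157, 0.000102 and 0.00128, and the GMP value is capped by that top. With slide as a block the CMP difference was -0.85 and not called (limma adjusted p = 0.204). The difference over both sides, -0.76, lost its call in 14 of the 16 fits that left out 1 array and was -0.29 without the LT-HSC array. MiR-144, an erythroid miR, was at 8.93 to 9.69 in MEP, at 5.29 in LT-HSC and 4.48 in ST-HSC 1 and at no more than 3.78 elsewhere, and its difference from MEP was -6.09 (limma adjusted p = 1.78e-06) while those from CMP and GMP, where no array detected it, were not called. Over both sides it was -1.49, -2.55 without the LT-HSC array and -0.57 with slide as a block (limma adjusted p = 0.211), where it was called higher than in CMP and GMP (1.27 and 2.18, limma adjusted p = 0.034 and 0.00105). Its cluster partner miR-451 had a difference of 0.19 over both sides (limma adjusted p = 0.718) and of -3.80 from MEP (limma adjusted p = 3.95e-05), and the former was -1.23 without the LT-HSC array (limma adjusted p = 0.0163).

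Of the other miRs called lower with MEP on the other side, miR-149 was at 6.41 to 6.66 in GMP and at 4.41 or less on every other array, with a difference of -3.34 from GMP. MiR-27b was -1.80 and -1.78 from CMP and GMP and 0.25 from MEP, and miR-21* -1.69, -1.45 and 0.08. MiR-467a was detected on no HSC array and on 3 myeloid arrays, with no bound above 1. Among those called higher, miR-542-3p and miR-450a-5p, from a cluster of chrX that also encodes miR-322 and miR-503, were detected on no MEP array, where their folds were at least 1.90 and 6.98, and differed from CMP and GMP by -0.12 to -0.50. MEP was below the lowest HSC array for miR-542-3p (1.62 against 3.04). MiR-760 and miR-468, with MEP on the other side, were not detected on any CMP or GMP array, and they lost their calls in 8 and 13 of the 16 fits that left out 1 array.

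Without the LT-HSC array, all 31 miRs of the stricter class were still called over both sides, and 26 stayed in the class, 12 higher and 14 lower. The 32 others depended on it more: of the 18 called lower, 10 were no longer called and 8 stayed as they were, and of the 14 called higher, 3 were no longer called and 6 then had all 3 populations on the same side. Among the 32 the sign over both sides turned for miR-363 (0.29), miR-340-3p (0.31), miR-340-5p (0.33), miR-301a (0.14), miR-503 (0.29) and miR-148a (-0.29), with none of these called.

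Slide moved part of the result. With slide as a fixed block, 27% of all tested miRs were called higher in HSC subsets and 17.3% lower, and 64 of the 114 miRs were still called in the same direction, 13 changed sign and 2 of these were called the other way. Of the 31 miRs of the stricter class 25 were still called, 20 stayed in the class (which then held 10.5% of all tested miRs as higher and 5.06% as lower) and 2, miR-16 (0.13) and miR-487b (-0.14), changed sign without being called. Of the 51 other miRs with all 3 populations on the same side, 10 entered the stricter class, 17 stayed out of it with all 3 on the same side and 24 were not called, and of the 32 with a population on the other side 5 stayed so, 8 had all 3 on the same side, 1 entered the stricter class and 18 were not called. The block left the leading miRs higher in HSC subsets near their values, at 2.97 for let-7e, 3.25 for miR-125a-5p, 3.23 for miR-125b-5p, 3.27 for miR-99a, 2.99 for miR-10a and 2.25 for miR-99b, and raised miR-146a to 4.38. It reduced the miR-17 family, to -0.83 for miR-17, -0.86 for miR-106a, -0.56 for miR-93 and -0.51 for miR-20b, all still called, and to -0.27 for miR-20a, which was not (limma adjusted p = 0.0963). MiR-18a was -1.49 with the block and miR-7a -1.06.

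**Figure D5:**
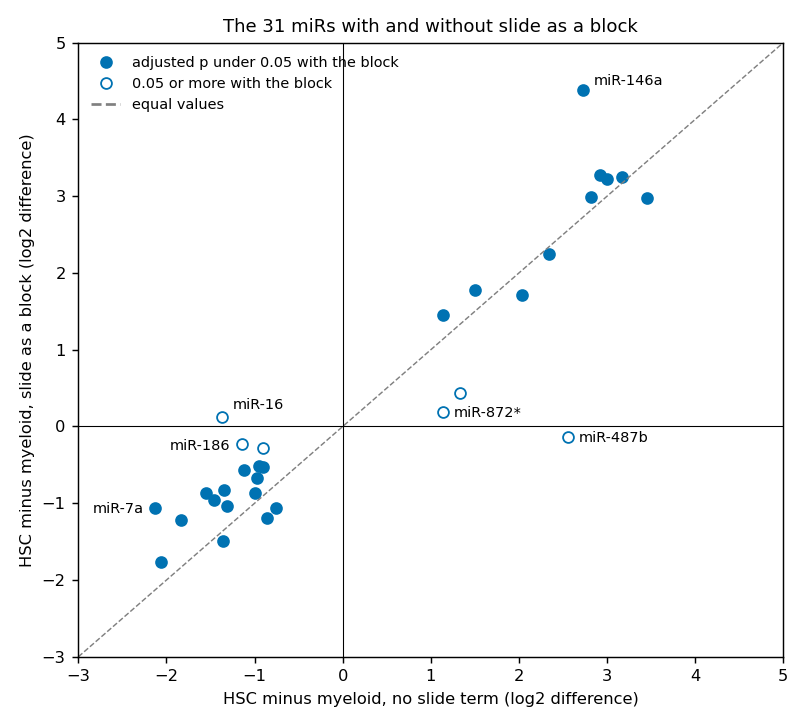
Log2 difference between HSC subsets and myeloid progenitors for the 31 miRs of the stricter class, without a slide term (x axis) and with slide as a fixed block (y axis); filled points have a limma adjusted p under 0.05 with the block, and the dashed line marks equal values. Most miRs higher in HSC subsets lie near the line, most lower ones lie between it and 0, and miR-16 and miR-487b lie across 0.

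Within slide 2, where both sides were read together, 2 HSC arrays faced 3 myeloid arrays. These arrays also entered the fits that chose the 31 miRs of the stricter class, so agreement is partly built in. The sign was the same for 30 of the 31 miRs, the exception being miR-16 (0.10), and for 187 of all 237 tested. The arrays did not overlap for 23 of the 31, against 20.7% of all tested miRs. The fit with slide as a block also links the 2 sides through slide 2 alone. Within that slide the difference was 2.84 for let-7e, 3.24 for miR-125a-5p, 3.21 for miR-125b-5p, 3.06 for miR-99a and 3.03 for miR-10a, and -0.75 for miR-17, -0.92 for miR-106a, -1.39 for miR-18a and -1.06 for miR-7a. For each of these 9 miRs the 2 HSC arrays did not overlap the 3 myeloid ones. No miR was called by limma on slide 2 alone, where 11 had an unadjusted p under 0.05.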

How the data were processed

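Per the file headers, each deposited file holds 1 one-colour array read by Agilent Feature Extraction 9.5.3.1 (slide 1) or 10.2.1.3 (slides 2 and 3), with spot intensity after background subtraction, foreground and background intensity, and yes-or-no calls. A second deposited table holds the authors' log2 values, quantile normalized by limma and in the rank order of the median foreground; whether other arrays entered is not given in the sources used here. It served as an alternative.

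Of 12493 spots, 11540 were not controls. Spots called outliers were dropped, and probe means were quantile normalized between the 16 arrays as in the study's methods, raised to a floor of 3.07 units (log2 1.62, from the 95th percentile of each array's negative controls by the median across arrays) and put on the log2 scale. A probe counted as detected on an array where at least 0.5 of its spots were well above background, and was tested when detected on 3 arrays or more, which held for 493 probes of 237 miRs of 577. Each miR was read from its brightest tested probe. Of 26 miRs of the stricter class with 2 or more passing probes, all probes of 26 had the same sign. Sizes could differ, as for miR-18a* (-0.86 and -0.18, of which 1 was called).

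A linear model with 1 mean for each population was fitted over the 16 arrays by limma 3.58.1 (lmFit, eBayes) in R 4.3.3, with 10 residual and 3.1 prior degrees of freedom. LT-HSC has 1 array and was assumed to vary like the others. The mean of the 3 HSC population means was set against that of the myeloid ones and against each one. P-values were two-sided and adjusted by Benjamini-Hochberg over 237 miRs, and calls needed an adjusted p under 0.05. For a probe detected on no array of the dimmer side, the fold is a bound, the bright mean against the higher, per array, of the dim probe's value and the lowest signal that any detected probe had. That bright mean weighs every array alike, whereas the differences weigh every population alike. Where the LT-HSC array was low, a bound weighed by population would be lower, and it was not computed. Slides were read from array names. The comparison was also tried on simulated data of 237 miRs. Of 60 miRs changed by 1.5 log2 units in all 3 myeloid populations, 98.3% were called and 68.3% were called against each. Of 60 miRs changed by 3 log2 units in MEP alone, 96.7% were called and 1.67% against each. Of unchanged miRs 4.27% were called. The simulated noise was independent between arrays, whereas measured values correlated within slides (limma consensus correlation 0.791), so the simulation does not show how slide affects calls.

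Array names were matched to RefSeq mature miRs, 2 by their current names. MiRs named in full were those of the stricter class without overlap between sides and well above background on every array of the higher side, and the 5 with the largest difference per direction among the called miRs with a population on the other side; others are members of lists or count examples, chosen after their values were seen. Members and lists were chosen with earlier results of these data known. Alternatives covered normalization, background, floor, detection filter, probe summary, intensity trend, array weights, slide and replicate blocks, slides or single arrays left out, and the study's rule of 2 probes and 10% of probes or more. The number of arrays limits the precision.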

Additional observations from a re-analysis of the deposited data

Results flagged for a closer look

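Among the 59 miRs examined by side, 22 of 118 groups had 1 array far from the others. The limit used marks about 1 in 20 groups drawn from 1 normal distribution. That rate is no base here, since each group pools 3 populations and the miRs were chosen for their results. The gap to the nearest array, as a share of the range of the 7 HSC arrays, marked the LT-HSC array for 15 miRs: it was 0.671 for miR-106b, 0.829 for miR-148a, 0.708 for miR-15b*, 0.76 for miR-18a*, 0.723 for miR-192, 0.787 for miR-19a, 0.633 for miR-221, 0.611 for miR-222, 0.79 for miR-223, 0.605 for miR-28, 0.639 for miR-322, 0.754 for miR-340-3p, 0.7 for miR-363, 0.756 for miR-503 and 0.623 for miR-542-3p. It marked ST-HSC 1, the other HSC array of slide 2, for 6 miRs, at 0.594 for miR-106b*, 0.619 for miR-149, 0.699 for miR-186, 0.806 for miR-20a, 0.745 for miR-467a and 0.595 for miR-760. On the myeloid side it marked GMP 2 for miR-872*, at 0.665, a miR detected on no myeloid array. Without the LT-HSC array the difference over both sides was -1.01 for miR-15b*, 1.49 for miR-222 and -0.14 for miR-192, and values for most of the others are given beside the results. The part of slide was not tested further.

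The difference from HSC subsets itself differed between CMP, GMP and MEP for 14 miRs of the stricter class, with adjusted p of the moderated F of limma of 0.000117 for let-7e, 0.000766 for miR-10a, 0.000149 for miR-125a-5p, 1.49e-06 for miR-125b-5p, 0.00125 for miR-146a, 1.82e-05 for miR-151-5p, 0.0068 for miR-28, 1.3e-07 for miR-99a and 0.00798 for miR-99b among those higher in HSC subsets, and of 0.00147 for miR-106b*, 0.0117 for miR-15b*, 0.00304 for miR-18a, 0.00538 for miR-7a and 0.0116 for miR-805 among those lower. The same held for the 8 miRs on which CMP, GMP or MEP was called in opposite directions, a choice that nearly fixes such a difference. Their adjusted p of the moderated F of limma was 4.57e-06 for miR-148a, 3.37e-05 for miR-192, 5.6e-07 for miR-221, 3.86e-06 for miR-223, 2.85e-05 for miR-301b, 1.62e-06 for miR-340-3p, 2.11e-07 for miR-363 and 3.76e-05 for miR-503.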

How the results depend on the processing

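Leaving out 1 array in turn gave 50 to 86 miRs called higher in HSC subsets and 44 to 63 lower (main 60 and 54), 42 to 68 and 32 to 42 with CMP, GMP and MEP on the same side (46 and 36), 10 to 19 and 14 to 23 called against each (13 and 18), and 145 to 175 with a difference among CMP, GMP and MEP (160). The highest counts on the higher side came without the LT-HSC array, which moved the median of all miRs by 0.11. Without 1 array, 24 to 31 of the 31 miRs stayed in the stricter class, and none changed sign.

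Other settings moved counts by over 1.5 times. In this order, miRs called higher, lower, higher on all 3 sides, lower on all 3 sides, higher against each, lower against each, and different among CMP, GMP and MEP numbered as follows, with only moved counts given. With no normalization between arrays they were 15 higher, 14 higher on all 3 sides, 0 and 9 against each, and 105; with the 75th percentile of the probes above background on all arrays, 29 lower, 71 higher on all 3 sides and 29 higher against each. With the floor at the highest negative-control percentile they were 35, 30, 29, 18, 10 lower against each and 74; with probes above background on all arrays (105 miRs tested), 27, 25, 19, 18, 2 higher against each and 66. With at least 2 probes called they were 38, 34, 26, 23 and 7 higher against each; without slide 1, 34 lower, 2 lower against each and 86; on slide 2 alone, 0, 0, 0 and 0 by limma. Higher against each also became 21 with the authors' values, 20 without the filter on dim probes and 25 with slide as a fixed block. The median of all miRs moved by -0.66 without normalization and by 0.34 and -0.20 with the 75th percentile of probes above background and of all probes.

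The sign of 1 difference turned as follows. With the 75th percentile of probes above background, miR-106b was 0.0065, miR-192 0.0756, miR-340-3p 0.0812, miR-363 0.19 and miR-503 0.0269; with that of all probes, miR-148a was -0.39, miR-221 -0.0176 and miR-451 -0.42. Without normalization miR-148a was -0.90, miR-221 -0.53, miR-322 -0.35, miR-450a-5p -0.0304, miR-451 -0.93 and miR-720 -0.28. With normexp miR-451 was -0.0265, and with arrays weighted equally it was -0.62 and miR-106b 0.13. With slide as a fixed block miR-16 was 0.13, miR-487b -0.14, miR-503 0.31 and miR-760 -0.24, with slide as a random block miR-503 was 0.13, and on slide 2 alone miR-16 was 0.10. Without the LT-HSC array the sign of 8 of the 114 called miRs turned, none of them called, among them miR-690 (-0.30), miR-98 (0.057), miR-301a (0.14) and miR-340-5p (0.33). Over all fits without 1 array miR-106b ran from -0.0801 to 0.27, miR-148a from -0.29 to 0.43, miR-340-3p from -0.63 to 0.31, miR-363 from -0.62 to 0.29, miR-451 from -1.23 to 0.40 and miR-503 from -0.70 to 0.29. The causes were not tested.

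Array titles without a number were numbered here, giving CMP 3, GMP 3 and MEP 3 but LT-HSC 1, ST-HSC 1 and MPP 1. None of the 18 same-numbered pairs of an HSC and a myeloid array shared a slide, which follows from this numbering. Their deviations correlated at -0.375 to 0.156, with 2 over 0.1, so pairing between the sides could not be judged. All 9 same-numbered pairs among CMP, GMP and MEP, which also shared a slide, correlated at 0.227 to 0.632, and the part of number and of slide was not tested. With this replicate number as a block, 55 miRs were called higher and 52 lower, 161 differed among CMP, GMP and MEP, and 29 of the 31 stayed in the stricter class. Of 31 miRs of the stricter class, 6 were detected on no array of the dimmer side, which limits their folds.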
